A study of Mus musculus with 16 samples.

Results

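The Wnt ligands, their Frizzled, Lrp, Ror and Ryk receptors, the secreted antagonists of the Sfrp and Dkk families and the Axin scaffolds were followed in 3 projections of the mouse prelimbic cortex (PL). The genes were taken by a rule on their symbols. This rule and the gene lists used below were set with earlier results of these data known. The rule gave 44 of the 39017 genes listed in each deposited table. They were 19 Wnt ligands, 10 Frizzled receptors, 2 Lrp co-receptors, 3 Ror or Ryk receptors, 8 secreted antagonists and 2 Axin genes. Frzb, a further secreted Frizzled-related gene, has a symbol outside the rule and was counted among other modulators.

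C57BL/6J mice carried a virus in PL that makes a GFP-tagged ribosomal protein only after Cre recombination, per the labels' protocols. A canine adenovirus that carries Cre back along axons was placed in the ventral tegmental area (VTA), the nucleus accumbens (NAc) or the basolateral amygdala (BLA), so that the tag marked PL neurons projecting to that target. Ribosomes with the tag were pulled down through GFP (immunoprecipitate, IP) and set against the total RNA of PL (Input), which holds neurons of all kinds, glia and vessels. The groups were PL-VTA IP and PL-VTA Input with 2 libraries each, and PL-NAc IP, PL-NAc Input, PL-BLA IP and PL-BLA Input with 3 libraries each. All groups share the strain and the pair of viruses, while the sources used here give no age, sex or pooling of animals.

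Wnt proteins are secreted, lipid-modified glycoproteins. In the beta-catenin branch a Wnt joins a Frizzled receptor to the co-receptor Lrp5 or Lrp6, which takes the scaffold Axin away from the complex that destroys beta-catenin, so that TCF/LEF factors can switch on target genes, Axin2 among them. Other branches run through Frizzled alone or through Ror and Ryk and guide polarity and axon growth. Secreted Frizzled-related proteins bind Wnts, and classic Dickkopf proteins block Lrp5 and Lrp6. In the cortex Wnts are known for roles in neurogenesis, axon and synapse growth and the blood-brain barrier.

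Of the 7 genes whose IP over Input value differed between projections, the promoter table held Wnt4, Wnt9a and Wnt2, whose promoters are shown first, 250 bases before and 50 after the start of the transcript, from RefSeq on build GRCm38.p6, 5′ to 3′ on the gene's strand, with each CpG in capitals. Wnt4 (chr4:137277385-137277684, plus strand) and Wnt9a (chr11:59306680-59306979, plus strand) were below Input in the PL-VTA IP and above it elsewhere. Wnt2 (chr6:18030396-18030695, minus strand) leaned the other way.
Wnt4: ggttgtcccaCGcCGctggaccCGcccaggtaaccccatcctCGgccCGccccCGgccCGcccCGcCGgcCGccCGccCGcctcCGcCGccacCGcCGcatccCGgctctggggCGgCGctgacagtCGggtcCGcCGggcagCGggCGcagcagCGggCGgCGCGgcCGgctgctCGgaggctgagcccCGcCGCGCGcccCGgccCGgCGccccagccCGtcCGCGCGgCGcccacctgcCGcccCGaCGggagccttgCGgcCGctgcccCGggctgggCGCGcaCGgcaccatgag
Wnt9a: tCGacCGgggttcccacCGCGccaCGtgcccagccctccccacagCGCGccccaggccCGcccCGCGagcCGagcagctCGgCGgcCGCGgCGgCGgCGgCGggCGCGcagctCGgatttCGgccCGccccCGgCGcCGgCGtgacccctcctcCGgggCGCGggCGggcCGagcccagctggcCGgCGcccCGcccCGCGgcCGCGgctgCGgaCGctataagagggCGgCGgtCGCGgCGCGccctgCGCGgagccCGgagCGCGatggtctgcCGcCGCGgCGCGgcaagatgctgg
Wnt2: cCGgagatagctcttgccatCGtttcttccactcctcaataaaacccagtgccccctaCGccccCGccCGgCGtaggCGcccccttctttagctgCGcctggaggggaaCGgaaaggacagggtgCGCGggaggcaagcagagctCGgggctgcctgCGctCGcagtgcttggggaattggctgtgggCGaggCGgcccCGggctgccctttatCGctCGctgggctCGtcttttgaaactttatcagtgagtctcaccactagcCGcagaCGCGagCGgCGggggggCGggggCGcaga
The Wnt4 window held 51 CpG and the Wnt9a window 58, counts reached by 0.715% and 0.110% of the 32851 promoters in the table, whose median was 7. The Wnt2 window held 27, reached by 15.5%. The table matched 29 of the 44 genes with 32 promoters, whose median was 28 CpG. Fzd9, which differed in no pair of projections, held 53, so dense CpG is not particular to the genes that differed. The TCF/LEF word CTTTGNN, with A or T at both places marked N, was searched on both strands, and overlaps with other motifs were allowed. It stood in 5 of those 32 promoters (15.6%, against 16.9% of all promoters), in Dkk1, Fzd7, Wnt3, Wnt5b and Wnt11, and in none of the 3 windows shown. A match in such a window is a description of letters, not of binding.

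Values below are those of the authors' DESeq2 comparison of IP with Input in each projection, which gives for each gene a mean normalized read count over both kinds of library, a log2 fold change of IP over Input and its standard error (SE). The sign was read as IP over Input because glial and mitochondrial transcripts are negative. Values of single libraries were not analysed here, so no per-library spread can be shown and the SE carries the replicate error. The labels do not say whether libraries came from separate animals, so p-values measure the spread between these libraries, which may be technical. A gene was called higher or lower at an adjusted p under 0.05. Because Input is mixed tissue, a lower IP value cannot tell fewer expressing cells among the tagged neurons from less RNA per cell.

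The mean counts summed to between 15437849 and 16520414 over the 3 authors' deposited tables. Most markers of glia, vessels and inhibitory neurons that were called were lower in the IP. The direction of the glial markers is no separate result, because glial transcripts served to read the sign. Of 12 astrocyte markers 12 were lower in PL-VTA, 12 in PL-NAc and 11 in PL-BLA, and all 9 oligodendrocyte markers were lower in each, by the authors' deposited tables. Of the vessel lists, 2 of 7 endothelial and 3 of 7 mural markers tested were lower in PL-VTA, 5 of 9 and 8 of 8 in PL-NAc, and 5 of 9 and 7 of 8 in PL-BLA. Of 8 fibroblast and meningeal markers 4, 6 and 6 were lower in PL-VTA, PL-NAc and PL-BLA. No marker of these 5 lists was higher in any projection, and none is listed at 0. Summed over each list, IP and Input means computed from the authors' mean and fold change ranged over the projections from 12738 to 21155 against 39709 to 42181 for astrocytes, 209 to 339 against 459 to 602 for endothelium, 419 to 677 against 1227 to 1475 for mural cells and 183 to 267 against 675 to 778 for fibroblasts and meninges. Of 7 oligodendrocyte precursor markers 6 were lower in each projection and 1 was higher in PL-BLA, and of 13 inhibitory neuron markers 10, 12 and 12 were lower and 0, 1 and 0 higher in PL-VTA, PL-NAc and PL-BLA, by the authors' deposited tables. Of 9 excitatory neuron markers 1 was higher and 2 lower in PL-VTA, 7 higher and 1 lower in PL-NAc, and 7 higher and 0 lower in PL-BLA, by the authors' deposited tables. Layer 5 extratelencephalic markers are typical of neurons that project out of the forebrain. These were higher in 5, 2 and 2 of 5 cases and lower in 0, 2 and 3 in PL-VTA, PL-NAc and PL-BLA. Layer 5 intratelencephalic markers were higher in 1, 3 and 4 of 4 and lower in 2, 0 and 0. Upper-layer markers were higher in 1, 0 and 0 of 5 and lower in 4, 5 and 4. Layer 6 markers were higher in 1, 3 and 1 of 8 and lower in 2, 1 and 4. The part of these cell types in the values below was not tested.

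Reads were found for 41 of the 44 genes in PL-VTA, 41 in PL-NAc and 42 in PL-BLA, and 18 reached a mean of 50 in each. Of these genes 29, 38 and 38 carried an adjusted p in the authors' deposited tables, which leave it blank for means under 8.58, 1.82 and 2.39. Wnt3a, Wnt8a, Wnt11, Dkk1 and Dkk4 carried none in any projection. Dkk1 and Dkk4 are listed at 0 throughout, Wnt8a is listed at 0 except for a mean of 0.151 in PL-BLA, and Wnt3a and Wnt11 did not pass a mean of 3.37, by the authors' deposited tables.

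Levels between genes were set side by side per kb of exon, with exon lengths from GENCODE M21. Dkk3 stood far above the rest, at 2171, 2454 and 2713 normalized counts per kb in PL-VTA, PL-NAc and PL-BLA, computed from the authors' deposited tables. The most abundant ligand was Wnt7b, at 253, 346 and 396 per kb. Axin1 followed with 172, 164 and 173, and Wnt10a with 129, 141 and 148. Wnt4 was at 72.2, 113 and 140 and Wnt9a at 66.5, 88.1 and 88.3. The highest receptor was Ryk, at 72.7, 64.4 and 69.6 per kb, and the highest Frizzled was Fzd3, at 37.1, 37.8 and 41.9. Lrp5 was low, at 0.617, 0.492 and 0.736 per kb, below Lrp6 at 14.4, 11.98 and 13.9. These levels average IP and Input, carry no error of their own and were normalized separately in each table, so close neighbours in this order are not told apart.

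**Figure D1:**
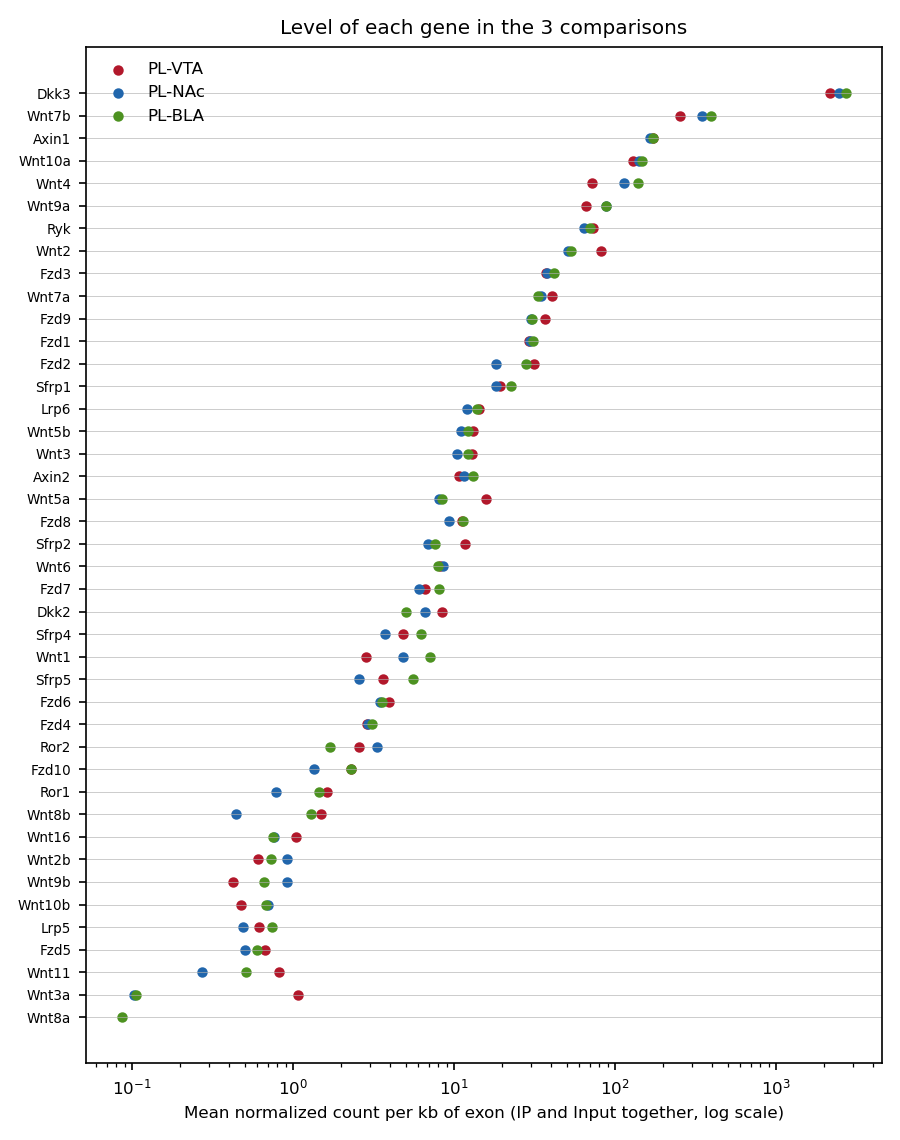
Mean normalized count per kb of exon (log scale, IP and Input together) of each gene with reads, 1 point for each projection; a missing point is a gene listed at 0. Dkk3 lies highest, up to 2713 per kb in PL-BLA, with Wnt7b next at up to 396.

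Most genes of the family that passed the test were lower in the IP. In PL-VTA 2 were higher and 7 lower of 29 tested, in PL-NAc 4 higher and 15 lower of 38, and in PL-BLA 4 higher and 13 lower of 38, by the authors' deposited tables. Of all genes tested, 11.0% were called higher and 10.5% lower in PL-VTA, 21.4% and 21.7% in PL-NAc, and 20.8% and 20.2% in PL-BLA, which makes 21.5%, 43.1% and 41.0% in either direction. The family's shares were 6.90% and 24.1%, 10.5% and 39.5%, and 10.5% and 34.2%. Its median log2 fold change over tested genes was -0.46, -0.51 and -0.53, beside 0.02, -0.03 and -0.02 for all genes. In all, 21 genes were called in at least 1 projection, and 15 of those had a negative value in each projection. Wnt7b and Dkk3 were higher in all 3, and Fzd2, Fzd6, Ryk and Sfrp1 lower in all 3.

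**Figure D2:**
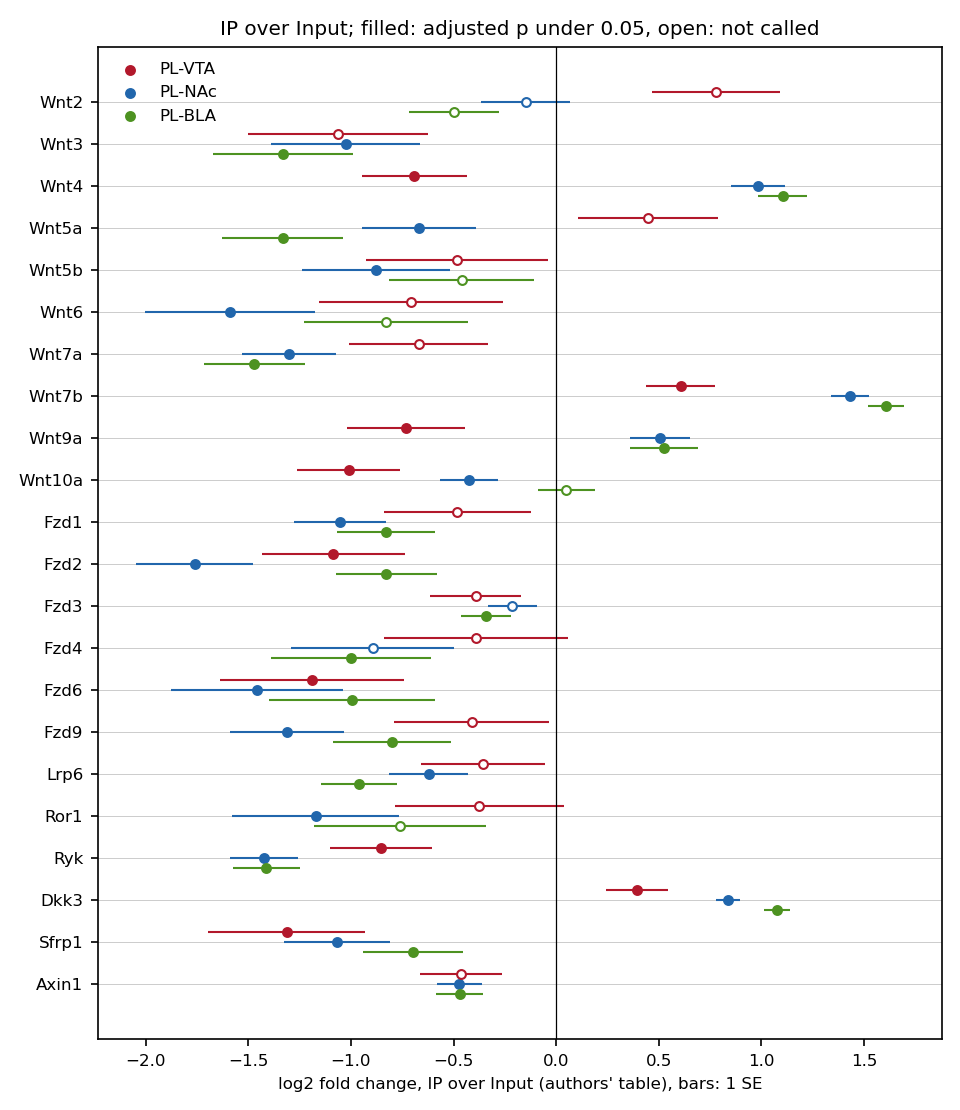
Log2 fold change of IP over Input (x axis) with 1 SE for the 21 genes called in at least 1 projection and for Wnt2; filled points are called at an adjusted p under 0.05. Receptors from Fzd1 to Ryk lie left of 0 in every projection, and Wnt7b and Dkk3 lie right of it. Wnt2, Wnt4, Wnt5a and Wnt9a change side between PL-VTA and the other projections.

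Among ligands, Wnt7b (ENSMUSG00000022382, chromosome 15, 85535437 to 85582473), which with Wnt7a drives growth of brain vessels, had the largest positive fold change among ligands called. To show both sides, IP and Input means were computed from the mean and the fold change, assuming that both kinds of library count alike; shrinkage of the fold change pulls them together for low counts. Wnt7b came to 1494 in the IP and 981 in Input of PL-VTA, 2473 and 917 of PL-NAc, and 2922 and 961 of PL-BLA. Its log2 fold change was 0.61 (SE 0.17) in PL-VTA, 1.43 (SE 0.09) in PL-NAc and 1.60 (SE 0.09) in PL-BLA in the authors' deposited tables, or 1.52-, 2.70- and 3.04-fold. The DESeq2 adjusted p was 0.00303, 1.38e-52 and 2.42e-72 in the authors' deposited tables. By fold change it ranked 1152nd of 15440, 70th of 17998 and 47th of 17668 genes tested.

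Its close relative Wnt7a (chromosome 6, 91363981 to 91411363) went the other way. Wnt7a was -0.67 (SE 0.34) and not called in PL-VTA, and fell at -1.30 (SE 0.23) in PL-NAc and -1.47 (SE 0.24) in PL-BLA in the authors' deposited tables. The IP held 40.6% of Input in PL-NAc and 36.1% in PL-BLA.

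Wnt4 (ENSMUSG00000036856, chromosome 4, 137277489 to 137299726), a ligand known from kidney and female reproductive tract development, was at 232 in the IP and 374 in Input of PL-VTA. Its computed means were 630.1 in the IP and 319 in Input of PL-NAc, and 800.1 in the IP and 373 in Input of PL-BLA. The 3 Input means lie closer together than the IP means, and the PL-VTA IP lies below both other IP means. Computed means carry no error and were normalized separately for each projection, so setting them side by side across projections is description only. The log2 fold change was -0.69 (SE 0.26) in PL-VTA, 0.98 (SE 0.13) in PL-NAc and 1.103 (SE 0.12) in PL-BLA in the authors' deposited tables, with DESeq2 adjusted p of 0.0353, 2.04e-12 and 1.16e-18. The PL-VTA call is lost without the authors' filter on the mean.

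Wnt9a (ENSMUSG00000000126, chromosome 11, 59306928 to 59333552), known from joint formation, was also below Input in PL-VTA and above it in PL-NAc and PL-BLA. The rise in PL-NAc and PL-BLA was smaller than that of Wnt4. Its computed means were 166 in the IP and 276 in Input of PL-VTA, 344 and 242 of PL-NAc, and 347 and 241 of PL-BLA. The log2 fold change was -0.73 (SE 0.29), 0.51 (SE 0.15) and 0.52 (SE 0.16) in PL-VTA, PL-NAc and PL-BLA in the authors' deposited tables. The DESeq2 adjusted p of 0.0495 in PL-VTA in the authors' deposited table lies at the threshold, and the call is lost without the authors' filter on the mean.

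Wnt10a (chromosome 1, 74791516 to 74804179), known from teeth and skin appendages, was lower in PL-VTA at -1.01 (SE 0.25) and in PL-NAc at -0.42 (SE 0.14) in the authors' deposited tables. It was 0.05 (SE 0.14) in PL-BLA and not called. Its computed means were 211 in the IP and 426 in Input of PL-VTA, 298 and 399.9 of PL-NAc, and 371 and 359 of PL-BLA.

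Wnt2 (chromosome 6, 17988940 to 18030585), known from lung development, passed the test in no projection. It was 0.78 (SE 0.31) in PL-VTA, -0.15 (SE 0.22) in PL-NAc and -0.50 (SE 0.22) in PL-BLA in the authors' deposited tables. At a mean of at least 50, which adjusts over fewer genes, it passed in PL-VTA and PL-BLA, and in PL-BLA also with fold changes centred on the median gene, at -0.55. Wnt5a (chromosome 14, 28504750 to 28527448), the textbook ligand of Ror2 and Ryk, was 0.45 (SE 0.34) and not called in PL-VTA, and fell at -0.67 (SE 0.28) in PL-NAc and -1.33 (SE 0.29) in PL-BLA in the authors' deposited tables. Its computed means were 142 in the IP and 104 in Input of PL-VTA, 49.1 and 77.9 of PL-NAc, and 37.2 and 93.8 of PL-BLA. For both ligands the PL-VTA IP mean was the highest of the 3 IP means, and the Input means lay nearer to each other.

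**Figure D3:**
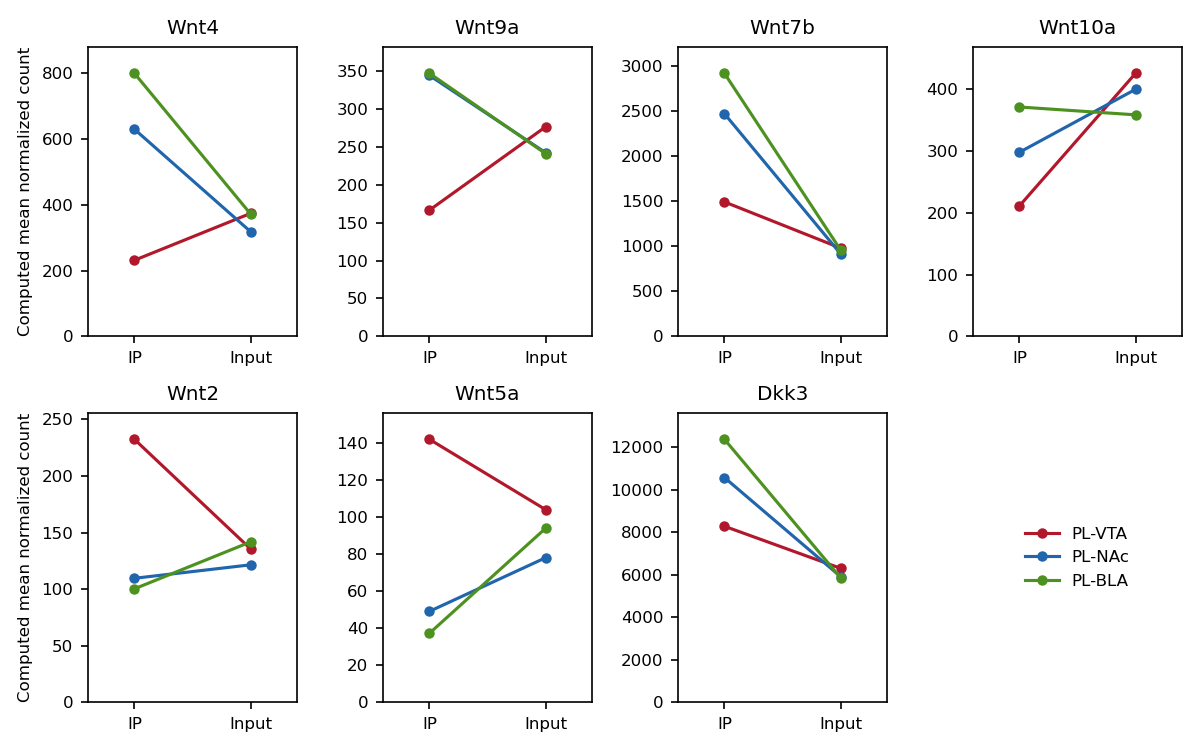
Mean normalized count computed for IP (left) and Input (right) in each projection (lines), for 6 ligands and Dkk3, each panel starting at 0 and without error bars since only the authors' mean and fold change enter. The Input ends lie closer together than the IP ends. The IP ends of PL-VTA lie lowest for Wnt4, Wnt9a, Wnt7b, Wnt10a and Dkk3 and highest for Wnt2 and Wnt5a. Projections were normalized separately.

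Other ligands were scarce. Wnt3, needed for gastrulation and limb growth, was -1.06 (SE 0.44) and not called in PL-VTA, and fell at -1.02 (SE 0.36) in PL-NAc and -1.33 (SE 0.34) in PL-BLA in the authors' deposited tables. Wnt6 fell in PL-NAc, at -1.59 (SE 0.41) with a mean of 18.7, and was -0.71 (SE 0.45) in PL-VTA and -0.83 (SE 0.40) in PL-BLA, not called, in the authors' deposited tables. Wnt5b fell in PL-NAc at -0.88 (SE 0.36), and was -0.48 (SE 0.44) in PL-VTA and -0.46 (SE 0.35) in PL-BLA, not called, in the authors' deposited tables. Wnt1, Wnt2b, Wnt8b, Wnt9b, Wnt10b and Wnt16 were tested in 1 or 2 projections and called in none, with means of at most 16.9.

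No receptor rose. Of the Frizzled genes tested, 2 of 8 were lower in PL-VTA, 4 of 10 in PL-NAc and 6 of 10 in PL-BLA by the authors' deposited tables. Fzd2 (chromosome 11, 102604396 to 102608058) stood at -1.09 (SE 0.35), -1.76 (SE 0.28) and -0.83 (SE 0.25) in PL-VTA, PL-NAc and PL-BLA in the authors' deposited tables, or 47.1%, 29.5% and 56.3% of Input. Fzd6, which acts in planar polarity of hair and skin, was -1.19 (SE 0.45), -1.46 (SE 0.42) and -0.995 (SE 0.40) in the authors' deposited tables, at means of only 16.6 to 18.9, and its PL-VTA call is lost without the filter on the mean.

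Fzd1 and Fzd9 fell in PL-NAc, at -1.05 (SE 0.22) and -1.31 (SE 0.28), and in PL-BLA, at -0.83 (SE 0.24) and -0.80 (SE 0.29), in the authors' deposited tables. In PL-VTA neither was called, with -0.48 (SE 0.36) for Fzd1 and -0.41 (SE 0.38) for Fzd9 in the authors' deposited table. Fzd3, a guidance receptor for many axon tracts and the Frizzled with the highest level here, fell in PL-BLA at -0.34 (SE 0.12), and was -0.39 (SE 0.22) in PL-VTA and -0.21 (SE 0.12) in PL-NAc, not called, in the authors' deposited tables. Fzd4, the receptor for Norrin in retinal and brain vessels, was called in PL-BLA at -0.998 (SE 0.39), while PL-VTA gave -0.39 (SE 0.45) and PL-NAc -0.89 (SE 0.40) in the authors' deposited tables. Centred on the median gene, Fzd4 passed in PL-NAc too, at -0.95. Fzd5, Fzd7, Fzd8 and Fzd10 were called in no projection. Among them Fzd8 had the highest mean, 66.9, 55.4 and 67.7, and fold changes of 0.28 (SE 0.40), -0.27 (SE 0.29) and 0.01 (SE 0.30) on the log2 scale in the authors' deposited tables.

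Ryk (ENSMUSG00000032547, chromosome 9, 102834917 to 102908305), an atypical Wnt receptor known for axon guidance, showed the lowest p among receptors. Its computed means were 235 in the IP and 425 in Input of PL-VTA, 159 and 425 of PL-NAc, and 172 and 459 of PL-BLA. The log2 fold change was -0.85 (SE 0.25), -1.42 (SE 0.16) and -1.41 (SE 0.16) in PL-VTA, PL-NAc and PL-BLA in the authors' deposited tables, with DESeq2 adjusted p of 0.00501, 6.44e-17 and 1.06e-16. Lrp6, the beta-catenin branch co-receptor, fell in PL-NAc at -0.62 (SE 0.19) and in PL-BLA at -0.96 (SE 0.18), and was -0.36 (SE 0.30) and not called in PL-VTA, in the authors' deposited tables. Ror1 was called in PL-NAc at -1.17 (SE 0.41) with a mean of only 4.50, and Ror2 and Lrp5 in no projection, by the authors' deposited tables.

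Of the antagonists only Dkk3 and Sfrp1 were called, in opposite directions. Dkk3 (ENSMUSG00000030772, chromosome 7, 112116017 to 112159057) encodes a divergent Dickkopf whose action on Wnt signalling is less settled than that of Dkk1. Its computed means were 8281 in the IP and 6305 in Input of PL-VTA, 10571 and 5917 of PL-NAc, and 12369 and 5859.8 of PL-BLA. The log2 fold change was 0.39 (SE 0.15), 0.84 (SE 0.06) and 1.08 (SE 0.06) in the authors' deposited tables, with DESeq2 adjusted p of 0.0409, 2.38e-45 and 3.72e-62. The PL-VTA call is lost when fold changes are centred on the median gene, at 0.33, and without the filter on the mean.

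Sfrp1 (chromosome 8, 23411502 to 23449632), a secreted Wnt-binding protein, was -1.31 (SE 0.38), -1.07 (SE 0.26) and -0.70 (SE 0.24) in PL-VTA, PL-NAc and PL-BLA in the authors' deposited tables, or 40.2%, 47.7% and 61.6% of Input. Dkk2, Sfrp2, Sfrp4 and Sfrp5 were called in no projection. Dkk2 was 0.67 (SE 0.45), 0.49 (SE 0.38) and -0.004 (SE 0.39) in the authors' deposited tables, at means of 31.2, 24.6 and 18.7.

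The scaffold Axin1 gave nearly the same value 3 times, -0.46 (SE 0.20), -0.47 (SE 0.11) and -0.47 (SE 0.11) in PL-VTA, PL-NAc and PL-BLA in the authors' deposited tables. It was called in PL-NAc and PL-BLA and not in PL-VTA, whose SE is wider, and passed there at -0.53 when centred on the median gene. Axin2, the common reporter gene of beta-catenin signalling, was called in none, at -0.55 (SE 0.42), -0.51 (SE 0.28) and -0.17 (SE 0.29) in the authors' deposited tables.

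Whether projections differed was asked gene by gene with a Wald z (two-sided) on the authors' deposited fold changes. Benjamini-Hochberg adjustment ran over all genes with a p-value in both projections and an adjusted p in at least 1 of them. Genes without an adjusted p in PL-VTA could thus enter its pairs. Both comparisons with PL-VTA share its 2 IP and 2 Input libraries. For PL-VTA minus PL-NAc 3 of 38 genes of the family differed, all negative, where 2.84% of all genes were called, 1.60% positive and 1.23% negative. For PL-VTA minus PL-BLA 7 of 38 differed, 5 negative and 2 positive, where 3.89% of all genes were called, 1.90% in the positive direction. For PL-NAc minus PL-BLA 0 of 39 passed, beside 1.45% of all genes (0.489% positive and 0.961% negative), with 3 at an unadjusted p under 0.05. The calls were 6 ligands and Dkk3. None of the 15 receptors and co-receptors was called in any pair, which lies near the shares of all genes and does not show that receptors are alike.

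Wnt4 differed most. PL-VTA minus PL-NAc was -1.68 (SE 0.29, adjusted p 1.57e-06 by the Wald z), and PL-VTA minus PL-BLA was -1.79 (SE 0.28, adjusted p 5.29e-08 by the Wald z). For Wnt9a the differences were -1.24 (SE 0.32, adjusted p 0.00726) and -1.26 (SE 0.33, adjusted p 0.00582) by the Wald z. For Wnt7b they were -0.82 (SE 0.19, adjusted p 0.00154) and -0.999 (SE 0.19, adjusted p 1.91e-05) by the Wald z. These 3 ligands were thus lower relative to Input in PL-VTA than in either other projection, Wnt7b while still above Input.

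Wnt10a passed only against PL-BLA, at -1.06 (SE 0.29, adjusted p 0.00901), and was -0.59 (SE 0.29, adjusted p 0.486) against PL-NAc by the Wald z. Dkk3 was -0.68 (SE 0.16, adjusted p 0.0013) against PL-BLA and -0.44 (SE 0.16, adjusted p 0.134) against PL-NAc by the Wald z. Wnt5a and Wnt2 were higher in PL-VTA than in PL-BLA, by 1.78 (SE 0.45, adjusted p 0.00346) and 1.28 (SE 0.38, adjusted p 0.0252) by the Wald z. Against PL-NAc Wnt5a was 1.12 (95% interval 0.26 to 1.98) and Wnt2 0.93 (0.18 to 1.67), with adjusted p of 0.219 and 0.262 by the Wald z.

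Between PL-NAc and PL-BLA the lowest p was that of Dkk3, at -0.24 (95% interval -0.41 to -0.07, adjusted p 0.192 by the Wald z). Fzd2 followed at -0.93 (-1.67 to -0.20) and Wnt10a at -0.47 (-0.87 to -0.08), with adjusted p of 0.318 and 0.366 by the Wald z. Ryk, the receptor with the highest level per kb, differed by 0.57 (95% interval -0.02 to 1.16) between PL-VTA and PL-NAc, an interval that includes 0 and also differences above 1.

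**Figure D4:**
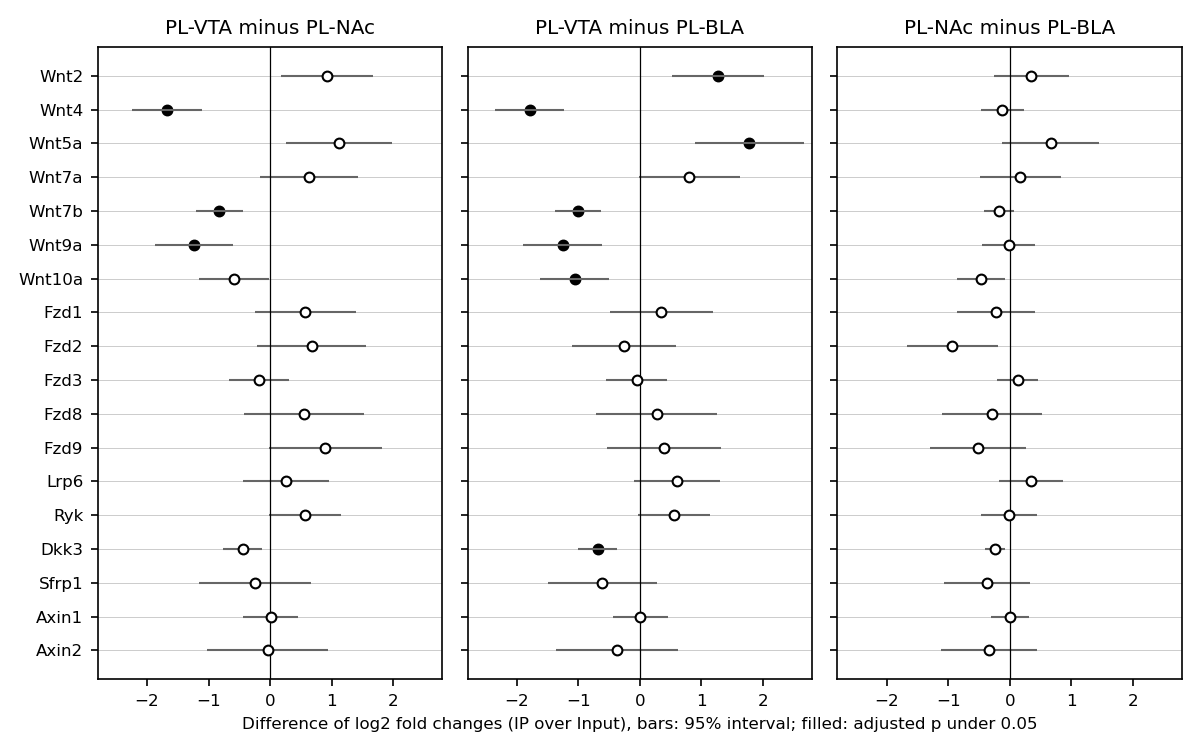
Difference between projections in log2 fold change of IP over Input (x axis) with its 95% interval, for the 18 genes with a mean of at least 50 in every comparison; filled points passed at an adjusted p under 0.05. Wnt4, Wnt7b and Wnt9a lie left of 0 in both panels with PL-VTA, Wnt2 and Wnt5a lie right of it, and no receptor is filled.

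Around the family, of 7 genes that make and export Wnts 1 was higher in PL-VTA, 5 in PL-NAc and 5 in PL-BLA, and none was lower, by the authors' deposited tables. The PL-VTA share, 14.3%, lies near the 11.0% of all genes called higher there, while 71.4% in PL-NAc and in PL-BLA stand beside 21.4% and 20.8% of all genes. The counts of the other lists are likewise to be set beside the shares of all genes, which were 10.5%, 21.7% and 20.2% for lower calls in PL-VTA, PL-NAc and PL-BLA. Wls, the carrier that takes Wnts to the cell surface, was -0.16 (SE 0.23) and not called in PL-VTA, and rose at 0.64 (SE 0.11) in PL-NAc and 0.87 (SE 0.11) in PL-BLA in the authors' deposited tables. Porcn, the enzyme that adds the lipid, rose in PL-NAc at 0.45 (SE 0.10) and PL-BLA at 0.47 (SE 0.10), and was 0.30 (SE 0.18) in PL-VTA, in the authors' deposited tables. Besides these the list held the general trafficking genes Tmed2, Tmed5, Vps26a, Vps29 and Vps35. The PL-VTA call was Vps29, at 0.49 (SE 0.14), with 0.39 (SE 0.06) in PL-NAc and 0.33 (SE 0.07) in PL-BLA, in the authors' deposited tables. The difference PL-VTA minus PL-BLA of Wls was -1.03 (SE 0.25, adjusted p 0.00237) by the Wald z.

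R-spondins, secreted proteins that raise the number of Wnt receptors at the surface, split. Of 8, 9 and 8 genes tested of this list with its Lgr receptors and the ligases Rnf43 and Znrf3, 1, 2 and 1 were higher and 1, 5 and 3 lower in PL-VTA, PL-NAc and PL-BLA by the authors' deposited tables. Rspo2 was 0.10 (SE 0.31) in PL-VTA, 1.69 (SE 0.14) in PL-NAc and 2.11 (SE 0.14) in PL-BLA in the authors' deposited tables, and PL-VTA differed from PL-NAc by -1.59 (SE 0.34) and from PL-BLA by -2.02 (SE 0.34), with adjusted p of 0.00028 and 4.84e-07 by the Wald z. Rspo3 rose in PL-VTA at 0.88 (SE 0.24) and in PL-NAc at 0.45 (SE 0.17), and was 0.30 (SE 0.19) in PL-BLA, in the authors' deposited tables. Rspo1 fell in all 3, at -1.07 (SE 0.30), -1.41 (SE 0.22) and -2.02 (SE 0.21) in the authors' deposited tables.

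Other extracellular modulators were called higher in 3 of 21, 2 of 22 and 2 of 22 cases and lower in 6, 8 and 9 in PL-VTA, PL-NAc and PL-BLA by the authors' deposited tables. The glypican Gpc4 rose in each, at 0.90 (SE 0.31), 0.77 (SE 0.21) and 1.07 (SE 0.19) in the authors' deposited tables. Tpbg, a membrane protein that restrains beta-catenin signalling in zebrafish, was 0.94 (SE 0.21) in PL-VTA and -0.37 (SE 0.16) and -0.12 (SE 0.16) in PL-NAc and PL-BLA in the authors' deposited tables. Dkkl1, a Dickkopf-like gene that also stands in the layer 5 intratelencephalic marker list, was -0.05 (SE 0.24) and not called in PL-VTA, and rose at 1.77 (SE 0.10) in PL-NAc and 1.95 (SE 0.11) in PL-BLA, by the authors' deposited tables. Lypd6 fell in all 3, at -2.75 (SE 0.27) in PL-VTA, with -1.75 (SE 0.17) and -1.95 (SE 0.16) in PL-NAc and PL-BLA, and the gene of Norrin, Ndp, fell at -1.43 (SE 0.35), -1.79 (SE 0.24) and -1.37 (SE 0.22), in the authors' deposited tables.

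Inside the cell the beta-catenin core held calls in both directions. Of its 22 genes 1, 4 and 2 were higher and 4, 7 and 8 lower in PL-VTA, PL-NAc and PL-BLA, with medians of -0.05, -0.14 and -0.14, by the authors' deposited tables. Apc, a part of the destruction complex, was -0.90 (SE 0.17), -0.86 (SE 0.09) and -0.88 (SE 0.09) in the authors' deposited tables. Ctnnb1, beta-catenin itself, was 0.10 (SE 0.14) and not called in PL-VTA, and rose at 0.20 (SE 0.06) in PL-NAc and 0.31 (SE 0.07) in PL-BLA in the authors' deposited tables. No gene of this list differed between projections by the Wald z.

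TCF/LEF factors and their cofactors were lower in 1, 6 and 8 of 13 cases and higher in 1 each in PL-VTA, PL-NAc and PL-BLA, by the authors' deposited tables. Tcf7 was -0.41 (SE 0.39) and not called in PL-VTA, and fell at -1.97 (SE 0.28) in PL-NAc and -2.01 (SE 0.28) in PL-BLA in the authors' deposited tables. Of beta-catenin target genes 5 of 15, 11 of 17 and 9 of 17 were lower and 0, 1 and 1 higher in PL-VTA, PL-NAc and PL-BLA by the authors' deposited tables. This list overlaps others, so some calls are counted in more than 1 list. It shares Lef1 and Tcf7 with the TCF/LEF list, Rnf43, Znrf3 and Lgr5 with the R-spondin list, and Notum and Apcdd1 with the other modulators. Nkd1, a feedback inhibitor, was -1.46 (SE 0.28), -0.37 (SE 0.14) and -0.37 (SE 0.14) in the authors' deposited tables, and PL-VTA differed from PL-NAc by -1.09 (SE 0.31) and from PL-BLA by -1.09 (SE 0.31), with adjusted p of 0.0224 and 0.0179 by the Wald z. Of the target genes Tcf7 and Fgf9 differed the other way. For Tcf7 PL-VTA differed from PL-NAc by 1.57 (SE 0.48, adjusted p 0.0419) and from PL-BLA by 1.60 (SE 0.48, adjusted p 0.0242) by the Wald z. Fgf9, a growth factor gene named for this difference, was -0.11 (SE 0.20) and not called in PL-VTA, and fell at -1.13 (SE 0.14) in PL-NAc and -1.02 (SE 0.13) in PL-BLA in the authors' deposited tables. Its differences were 1.03 (SE 0.24, adjusted p 0.00154) and 0.91 (SE 0.23, adjusted p 0.00434) by the Wald z. Sox17, an endothelial transcription factor, and Bmp4 fell in all 3, Sox17 at -1.28 (SE 0.45), -1.86 (SE 0.41) and -1.46 (SE 0.39) in the authors' deposited tables. Of 16 planar polarity genes 1, 2 and 3 were higher and 3, 5 and 6 lower, with Celsr2 up at 0.59 (SE 0.16), 0.21 (SE 0.09) and 0.34 (SE 0.10) in the authors' deposited tables. Daam2 fell at -1.28 (SE 0.35), -1.74 (SE 0.23) and -1.14 (SE 0.22) in PL-VTA, PL-NAc and PL-BLA. Ankrd6 fell at -0.86 (SE 0.20), -0.78 (SE 0.10) and -0.49 (SE 0.12), also in the authors' deposited tables. Vangl2 and Dact2 differed between PL-VTA and PL-BLA by the Wald z, 1 in each direction. By the same test Tle4 of the TCF/LEF list was higher relative to Input in PL-NAc and in PL-VTA than in PL-BLA. Lgr6 of the R-spondin list was lower in PL-NAc than in PL-BLA. Dkkl1 was lower and Tpbg higher in PL-VTA than in either other projection.

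**Figure D5:**
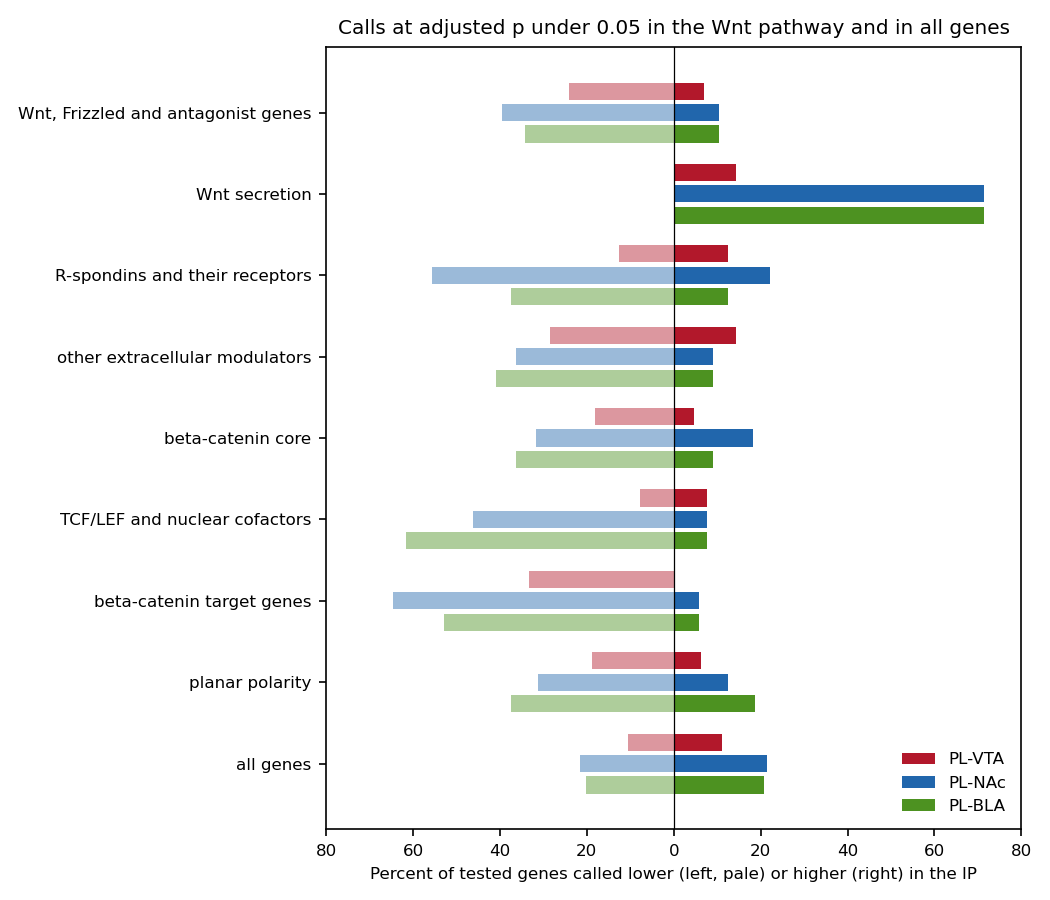
Percent of tested genes called lower (left, pale) or higher (right) in the IP by the 0.05 threshold on the adjusted p, for the family, 7 lists of other Wnt pathway genes and all genes, 1 bar for each projection. Wnt secretion genes have bars to the right only, while beta-catenin target genes reach farthest to the left, with 11 of 17 lower in PL-NAc. Some genes stand in more than 1 list.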

How the data were processed

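RNA of 16 samples in 6 groups was sequenced, with groups taken from the sample titles. Per the submitters' processing notes, the tools were STAR 2.3, featureCounts and DESeq2 and the mouse builds mm10 and GRCm38. Libraries came from the SMARTer Ultra Low RNA and Nextera XT kits, per the labels' protocols, a chemistry that does not mark strand. The authors deposited, per the file headers, a mean normalized count (signal over libraries), a log2 fold change with its standard error, a Wald score, a p-value and an adjusted p-value for each gene and projection. The score equalled fold change over standard error, and the adjusted p its Benjamini-Hochberg adjustment. Fold changes appear shrunken, which understates change at low counts. The count tests planned in case counts were present were not used.

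Means and fold changes gave computed IP and Input means. Differences between projections were tested with a two-sided Wald z over 17980 (PL-VTA and PL-NAc), 17671 (PL-VTA and PL-BLA) and 18211 (PL-NAc and PL-BLA) genes with scipy 1.17.1, and the script was tested on simulated data. Shrinkage may differ between the separately made comparisons, which the Wald z does not correct and the simulated data did not model. Exon lengths and positions are those of GENCODE M21 (GRCm38), which holds 37693 of the 39017 gene IDs. Rows without a symbol held at most 0.240% of the mean counts. Genes named were all members with an adjusted p. In other lists they were drawn from the at most 3 per direction called in most projections, but not all of those are named. Left out were Sdc4, Tnks, Tnks2, Btrc, Pygo1 and Pygo2, each called in all 3 projections. Fgf9, Vangl2, Tle4 and Lgr6 were named for a difference between projections. The members and lists were chosen with earlier results of these data known. Depth per library was not analysed here, and for genes that reached a mean of 50 the typical (median) standard error came to 0.219 in PL-VTA, 0.124 in PL-NAc and 0.129 in PL-BLA.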

Additional observations from a re-analysis of the deposited data

Results flagged for a closer look

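The test of a difference between projections singled out 10 differences in 7 genes, each a difference of log2 fold changes of IP over Input. For Wnt4 it was -1.68 for PL-VTA minus PL-NAc and -1.79 for PL-VTA minus PL-BLA. Wnt7b gave -0.82 and -0.999 in the same pairs, and Wnt9a gave -1.24 and -1.26. In PL-VTA minus PL-BLA alone, Wnt10a gave -1.06, Dkk3 -0.68, Wnt2 1.28 and Wnt5a 1.78. Both pairs hold the same 2 PL-VTA IP and 2 PL-VTA Input libraries, so they are not independent of each other. Layer 5 extratelencephalic markers were higher in the IP in 5 of 5 cases in PL-VTA and in 2 of 5 in each other projection. They were lower in 2 of 5 in PL-NAc and 3 of 5 in PL-BLA. The part of neuron class in the differences was not tested.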

How the results depend on the processing

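Counts of family genes kept within 1.5 times of the main count under most alternatives. Exceptions were, at an adjusted p under 0.01, 8 lower in PL-BLA and 3 lower and 1 higher in PL-VTA. Without a filter on the mean, PL-VTA had 1 higher and 4 lower. With fold changes centred on the median of genes with a mean of at least 50, or at a change of at least 1.5-fold, PL-VTA had 1 higher. The medians taken away were 0.06 in each projection. The counts of differing genes, 3, 7 and 0, stayed within 1.5 times under each alternative. Wnt10a in PL-BLA turned to -0.00498 (0.05 as reported, called in neither) when centred. Among single genes, centring left 61 values on their side, brought 3 past the threshold (Wnt2 in PL-BLA, Fzd4 in PL-NAc, Axin1 in PL-VTA) and lost 1, Dkk3 in PL-VTA, while a mean of at least 50 left 46 and brought 2, Wnt2 in PL-VTA and PL-BLA. Leaving out replicates was not run, since the tables hold no values of single libraries. No paired analysis was possible because the result columns carry no replicate numbers. Low counts limit what can be seen: 15 genes in PL-VTA and 6 in each other projection had no adjusted p.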

Other observations

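Of the family, 4 pairs of ligand genes lie within 100 kb of each other in GENCODE M21. Wnt9a was detected at means of 221, 293 and 294 in PL-VTA, PL-NAc and PL-BLA, while its neighbour Wnt3a, 16.2 kb away on the other strand, was at 2.96, 0.282 and 0.293, in the authors' deposited tables. Wnt10a stood at 319, 349 and 365 and its neighbour Wnt6, 6.19 kb away, at 18.01, 18.7 and 17.4 in the authors' deposited tables. Wnt3 had means of 39.6, 32.2 and 37.4 and Wnt9b, 24.3 kb away, of 1.91, 4.16 and 2.996 in the authors' deposited tables. Wnt1 and Wnt10b, 11.7 kb apart, were both under a mean of 17. Reads of overlapping antisense genes cannot be told apart without strand. AU022754 shares 6.61% of the exon bases of Wnt7b, at a mean of 25.0 in PL-NAc beside 1695 for Wnt7b, in the authors' deposited table.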
